A study of Arabidopsis thaliana with 8 samples.

Results

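The difference between 2 temperature responses was examined in imbibed Arabidopsis thaliana seeds: the response to imbibition at 4 °C instead of 22 °C in 35S-GSH1 seeds, minus the same response in Col-0 seeds. This genotype by temperature interaction was computed for each probe set from all 8 of the 8 arrays of the series, as the log2 difference between 35S-GSH1 at 4 °C and at 22 °C minus the log2 difference between Col-0 at 4 °C and at 22 °C. The 4 groups were 35S-GSH1 seeds at 4 °C, 35S-GSH1 seeds at 22 °C, Col-0 seeds at 4 °C and Col-0 seeds at 22 °C, each imbibed for 24 h and each with 2 arrays. Per the labels, 35S-GSH1 overexpresses GSH1 in the background of the wild-type ecotype Col-0, and the 4 °C treatment is described as vernalization. The 35S promoter comes from a plant virus and is active in most tissues, so the line is not limited to seeds or to one cell type, and the labels do not say how many transgenic lines it stands for. No probe set was paired with GSH1 in the tables used here, so no measurement here checks the overexpression and genotypes were taken from the labels. The labels name neither separate seed lots nor separate plants for the replicates, so p-values measure only how far these samples spread, and that spread may be technical.

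GSH1 encodes glutamate-cysteine ligase, the first and rate-limiting enzyme of glutathione synthesis. Glutathione is the main soluble thiol of plant cells. It serves as the electron donor of the ascorbate-glutathione cycle, as the co-substrate of glutathione transferases and as a store of reduced sulfur. Imbibition restarts respiration and transcription in the dry seed, and a cold moist period is widely used to break dormancy and synchronise germination. The interaction addresses whether seeds with more GSH1 expression respond to the cold period differently from wild-type seeds in their transcripts.

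The 8 arrays had median deposited intensities between 12.3 and 16.2, and after quantile normalization 13648 probe sets above a low-signal filter were tested. Of these, 7618 were paired with 1 gene. Of the seed markers set out for the tissue check, 1 of 15 was on the table under its name. This was the oleosin gene OLEO3, a coat protein of seed oil bodies, which lay at the 96.3rd percentile of all probe sets, with log2 values of 8.90 to 9.61. Of 11 leaf markers 2 were on the table, LHCB4.1 at the 92.1st percentile and RCA at the 60.3rd. The root marker EXPA7 lay at the 22.5th percentile, under the filter, and no endosperm marker was on the table under its name. The RNA came from whole seeds, so fewer cells of a type and less RNA per cell cannot be told apart in any value below.

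No transcript had a temperature response that differed between 35S-GSH1 and Col-0 past the threshold. With limma and Benjamini-Hochberg adjustment, 0 of 13648 probe sets had an adjusted p under 0.05 (0%), and the lowest adjusted value was 0.9996. An unadjusted p under 0.05 was found for 453 probe sets (3.32%), 200 above 0 (1.47%) and 253 below 0 (1.85%), where 682.4 would be reached if p-values were spread evenly. At an unadjusted p under 0.01 there were 59, against 136.48 for evenly spread values. The count of small p-values thus lay below an even spread at both levels in this fit. With the replicate number as a block, described below, the count at 0.05 lay above it.

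**Figure D1:**
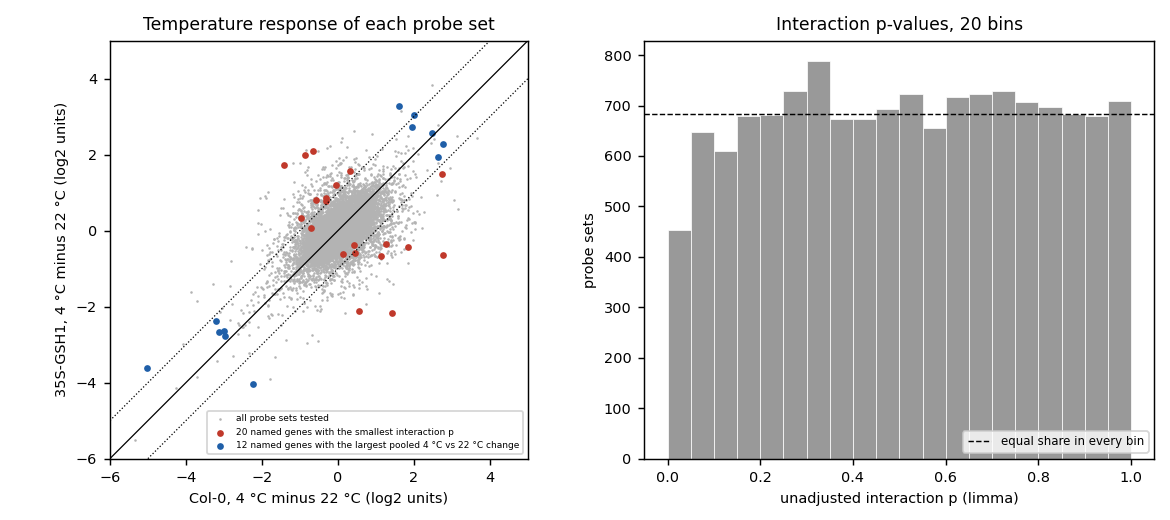
Left: the 4 °C minus 22 °C difference (log2 units) of every tested probe set, 35S-GSH1 on the vertical and Col-0 on the horizontal axis, with the line of equal responses (solid) and lines 1 log2 unit above and below it (dotted). Right: the number of probe sets in 20 bins of the unadjusted interaction p from limma. The 12 named genes with the largest mean change lie in the 2 corners of equal sign, where their choice places them, and the lowest p bin holds 453 probe sets, fewer than the dashed line of equal bins.

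The sizes of the interaction were small for most transcripts. Its median absolute value was 0.25 log2 units, a ratio of 1.19 between the fold responses, and 9 in every 10 probe sets lay between -0.80 and 0.77. The extremes were -3.60 and 3.14. The interaction varied over probe sets with an SD of 0.50 log2 units, beside 0.53 for the temperature difference in 35S-GSH1 and 0.55 for that in Col-0. The interaction carries the error of both differences, and its median SE was 0.35 log2 units. These sizes thus include error and do not measure true differences alone. An absolute value over 1 log2 unit, which is a 2-fold difference between the responses, was found for 820 probe sets (6.01%). Of these, 93 above 0 and 96 below 0 also had an unadjusted p under 0.05.

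A p that misses the threshold does not show equal responses, so the intervals matter. For 6522 probe sets (47.8%) the 95% interval lay inside -1 to 1 log2 units, which bounds the difference between the responses at 2-fold for each. Bounds of -2 to 2, or 4-fold, held 11622 probe sets (85.2%). The rest of the table left room for larger differences. Bright transcripts were bounded best: the median half-width of the interval was 0.55 log2 units in the brightest of 4 equal classes of signal level and 1.58 in the dimmest. In the brightest class 87.7% of the intervals lay inside 2-fold, and in the dimmest 0.176% did. The dimmest class held 731 of the 820 values over 1 log2 unit in size, and the brightest held 2. The single-array temperature differences of the genotypes did not overlap for 2076 probe sets (15.2%).

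Among the named genes with the smallest p, the 10 with an interaction above 0 had values of 0.78 to 3.14 log2 units, and limma gave them unadjusted p-values of 0.00151 to 0.00719. All had the same adjusted p of 0.9996, so none passed. They were UGT85A7, AT2G20560, AT1G24530, CHR23, AT2G33250, AT5G04460, AT4G39200, AT1G08180, AT5G39980 and AT5G21020. In 9 of the 10 the temperature differences of the genotypes had opposite signs, higher at 4 °C in 35S-GSH1 and lower at 4 °C in Col-0. The exception was AT1G24530, which was higher at 4 °C in both. A positive interaction and a small p were what chose these genes, so their direction and separation are descriptions.

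UGT85A7 (AT1G22340) encodes a UDP-glucosyltransferase, a class of enzymes that attach glucose to small molecules. Its log2 values were 4.06 and 4.35 in 35S-GSH1 seeds at 4 °C and 1.47 and 2.93 in 35S-GSH1 seeds at 22 °C. In Col-0 seeds they were 3.83 and 3.63 at 4 °C and 4.98 and 4.21 at 22 °C. The warm 35S-GSH1 arrays were thus the low ones, and within each genotype the temperatures did not overlap. The temperature difference was 2.002 in 35S-GSH1 and -0.87 in Col-0, and the interaction was 2.87 log2 units (SE 0.73, 95% interval 1.31 to 4.43), a ratio of 7.31 between the fold responses. The warm 35S-GSH1 mean lay under the level of the low-signal filter, at deposited intensities of 1.9 and 5.6. With log2(intensity + 16) in place of log2(intensity + 1) the interaction was 1.22, so its size rests on the constant added to dim values. That larger constant moved 30 of 88 named genes and probe sets closer to 0 by more than 1.5 times and 0 away from it.

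CHR23 (AT5G19310), a chromatin remodelling ATPase, was brighter. It had 6.08 and 6.23 in 35S-GSH1 seeds at 4 °C and 4.59 and 5.30 at 22 °C, against 5.41 and 5.61 in Col-0 seeds at 4 °C and 5.44 and 5.69 at 22 °C. The Col-0 arrays overlapped between temperatures, while the cold 35S-GSH1 arrays lay above all others. The interaction was 1.27 (95% interval 0.49 to 2.04), built from 1.21 in 35S-GSH1 and -0.06 in Col-0.

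AT1G24530 gave a like picture with 5.83 and 5.80 in 35S-GSH1 at 4 °C and 4.06 and 4.42 at 22 °C, against 6.01 and 5.76 in Col-0 at 4 °C and 5.30 and 5.82 at 22 °C. Only the warm 35S-GSH1 arrays stood apart from the other 6, and the interaction was 1.24 (SE 0.35). AT2G20560 was the brightest of the 10, with an interaction of 0.78 (95% interval 0.32 to 1.24). It had 11.11 and 10.96 in 35S-GSH1 at 4 °C and 10.94 and 11.00 at 22 °C, against 10.54 and 10.69 in Col-0 at 4 °C and 11.15 and 11.50 at 22 °C. Here the temperature difference lay in Col-0, at -0.71, beside 0.07 in 35S-GSH1.

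AT2G33250 had the highest interaction of all tested probe sets, 3.14 (95% interval 1.21 to 5.06), and was dim. Its log2 values were 3.83 and 3.84 in 35S-GSH1 at 4 °C and 1.78 and 2.45 at 22 °C, against 1.74 and 3.05 in Col-0 at 4 °C and 3.77 and 3.86 at 22 °C. The genotypes crossed: the high arrays were the cold ones in 35S-GSH1 and the warm ones in Col-0. The remaining members of this group of 10 had interactions of 1.16 (AT5G04460), 1.38 (AT4G39200), 1.09 (AT1G08180), 2.76 (AT5G39980) and 1.33 (AT5G21020). With the larger constant AT2G33250 had 1.08, AT5G39980 0.98 and AT1G24530 0.82. Of the 10 genes, 3 had at least 1 group mean under the filter level.

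**Figure D2:**
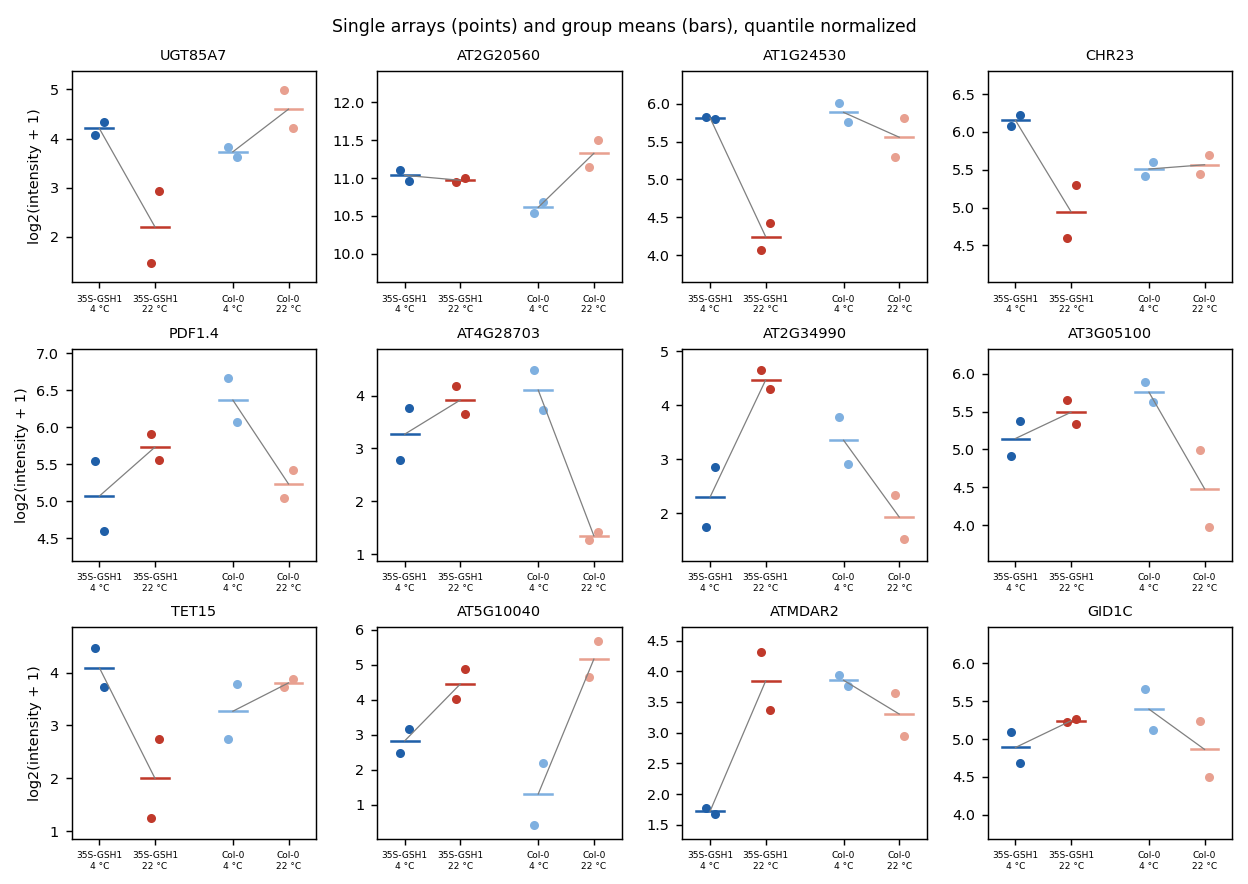
Log2(intensity + 1) of 12 genes on single arrays (points), with group means (bars) joined within each genotype; in each panel 35S-GSH1 is left of Col-0 and 4 °C left of 22 °C. The top row holds the named genes with the smallest p above 0, the middle row those below 0, and the bottom row genes of the lists; UGT85A7 is higher at 4 °C in 35S-GSH1 and lower at 4 °C in Col-0, while AT4G28703 has its low arrays, 1.28 and 1.42, in Col-0 at 22 °C.

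The 10 named genes with the smallest p below 0 had interactions of -3.60 to -0.76 and limma unadjusted p-values of 0.00109 to 0.00606. They were PDF1.4, AT4G28703, AT2G34990, AT3G05100, AT2G38840, AT5G04500, AT1G05060, ATMDAR2, AT5G06560 and AT4G16710, and the adjusted p was again 0.9996 for each. In 9 of them the temperature differences again had opposite signs. In 5 of the 10 the warm Col-0 group was the one that stood farthest from the other groups, and in 3 it was the warm 35S-GSH1 group. At least 1 group mean lay under the filter level in 4 of the 10.

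PDF1.4 (AT1G19610) encodes a plant defensin, a small cysteine-rich peptide. It had the smallest p of any named gene. Its log2 values were 5.54 and 4.60 in 35S-GSH1 at 4 °C and 5.91 and 5.56 at 22 °C, against 6.66 and 6.08 in Col-0 at 4 °C and 5.04 and 5.43 at 22 °C. Warm and cold arrays separated within each genotype, in opposite directions, but in 35S-GSH1 only by the margin between 5.545 (cold) and 5.559 (warm). The temperature difference was -0.66 in 35S-GSH1 and 1.13 in Col-0, and the interaction was -1.79 (SE 0.44, 95% interval -2.73 to -0.86). On the deposited scale the intensities were 50.8 and 22.9 in cold 35S-GSH1 seeds and 55.7 and 43.2 in warm ones. They were 105.3 and 69.1 in cold Col-0 seeds and 30.9 and 40.2 in warm ones. The 35S-GSH1 arrays thus overlapped between temperatures on that scale, and the Col-0 arrays did not.

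AT4G28703 had 2.78 and 3.75 in 35S-GSH1 at 4 °C and 4.18 and 3.65 at 22 °C, against 4.48 and 3.72 in Col-0 at 4 °C and 1.28 and 1.42 at 22 °C. The 35S-GSH1 arrays overlapped between temperatures, and the warm Col-0 arrays were lower than all others, at deposited intensities of 1.5 and 1.6. The interaction was -3.40 (95% interval -5.20 to -1.60). AT2G34990 had the lowest interaction of all tested probe sets, -3.60 (95% interval -5.60 to -1.59). It had 1.73 and 2.86 in 35S-GSH1 at 4 °C and 4.65 and 4.30 at 22 °C, against 3.79 and 2.91 in Col-0 at 4 °C and 2.34 and 1.52 at 22 °C, with 2 group means under the filter level. With log2(intensity + 16) AT4G28703 had -1.16 and AT2G34990 -1.31.

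AT5G04500 differed from the rest in that it was higher at 4 °C in both genotypes. Its values were 8.08 and 8.18 in 35S-GSH1 at 4 °C and 6.58 and 6.68 at 22 °C, against 8.13 and 8.15 in Col-0 at 4 °C and 4.90 and 5.93 at 22 °C. The cold arrays of both genotypes lay between 8.08 and 8.18, and the warm Col-0 arrays lay below the warm 35S-GSH1 arrays. The temperature difference was 1.50 in 35S-GSH1 and 2.73 in Col-0, an interaction of -1.23 (95% interval -2.02 to -0.44).

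The remaining interactions in this group were -1.62 for AT3G05100, -2.28 for AT2G38840 (-0.93 with the larger constant), -0.80 for AT1G05060, -0.76 for AT5G06560 and -1.04 for AT4G16710. Probe sets without a listed gene reached smaller p-values than any named gene. The smallest unadjusted p of all, 0.000386, belonged to 250285_at. It had 5.54 and 5.31 in 35S-GSH1 at 4 °C and 5.45 and 5.68 at 22 °C, against 5.72 and 5.81 in Col-0 at 4 °C and 4.50 and 4.27 at 22 °C, an interaction of -1.52. As in AT4G28703, the warm Col-0 arrays were the low ones. The next, 263986_at and 257612_at, had interactions of -0.89 and -1.32, and 264137_at, 262566_at and 265951_at had 0.99, 1.65 and 2.74. With the larger constant 262566_at had 0.99 and 265951_at 0.92.

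The strongest cold responses were then examined for how far they could differ between the genotypes. The mean of both genotypes' temperature differences passed limma's test for 2237 probe sets (16.4%), 1180 higher (8.65%) and 1057 lower (7.74%) at 4 °C. In this balanced design that mean is estimated independently of the interaction, apart from the shared estimate of the spread. With each interaction signed so that a positive value means a larger response in 35S-GSH1, the median over these probe sets was -0.04, and it was -0.02 over all probe sets tested. The response was smaller in 35S-GSH1 for 1212 (54.2%) and larger for 1025, beside 52.5% smaller over all. The median turned positive when any one of the 35S-GSH1 arrays was left out, with values up to 0.044. It went down to -0.13 when replicate 2 of the warm Col-0 seeds was left out. Each such run chose its responders anew, and with unequal group sizes the mean and the interaction are no longer estimated independently. The direction of these shifts is thus favoured by construction, and nothing is read from them. With all 8 arrays, an unadjusted interaction p under 0.05 was found for 112 of the 2237 (5.01%), beside 3.32% of all probe sets tested. The shared estimate of the spread acted on both tests. Of the 2237 intervals, 1483 (66.3%) lay inside 2-fold, beside 47.8% of all probe sets tested.

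For 514 of the 2237 probe sets (23.0%) the whole interval of the interaction was smaller in size than the response itself. This share was 56.0% among the 434 that changed over 2-fold and 75% among the 64 that changed over 4-fold. These subsets were cut on the same response size that the interval is compared with, so a rising share is favoured by construction. Among those 64, 15 had an unadjusted interaction p under 0.05 (23.4%, beside 3.32% of all probe sets tested), 9 with a smaller and 6 with a larger response in 35S-GSH1. The shared estimate of the spread acted on both tests here too, so nothing is read from the larger share. Dim values also enter: a group mean lay under the filter level in 4 of the 6 named genes with the largest rise and 3 of the 6 with the largest fall.

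**Figure D3:**
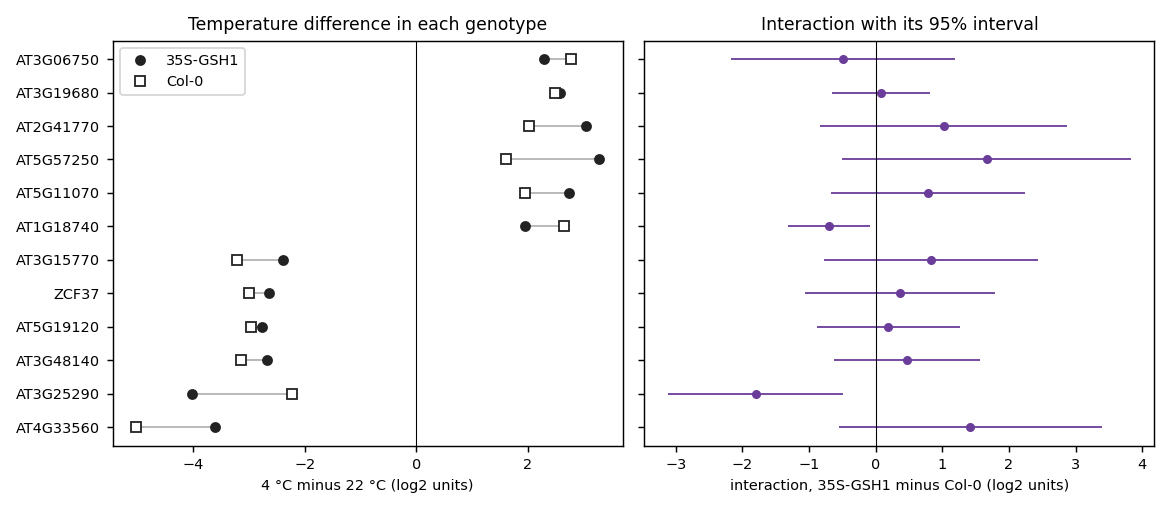
The 6 named genes with the largest rise and the 6 with the largest fall at 4 °C. Left: the 4 °C minus 22 °C difference (log2 units) in 35S-GSH1 (filled circles) and Col-0 (open squares). Right: the interaction with its 95% interval; 10 of the 12 intervals include 0, and those of AT1G18740 and AT3G25290 do not.

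Among the 6 named genes with the largest rise at 4 °C, AT3G19680 had nearly the same difference in both genotypes. It had 8.60 and 8.94 in 35S-GSH1 at 4 °C and 6.05 and 6.35 at 22 °C, against 8.64 and 9.37 in Col-0 at 4 °C and 6.34 and 6.70 at 22 °C. The interaction was 0.08 with a 95% interval of -0.65 to 0.81, beside responses of 2.57 in 35S-GSH1 and 2.49 in Col-0. AT1G18740 had 8.29 and 8.43 in 35S-GSH1 at 4 °C and 6.42 and 6.43 at 22 °C, against 8.44 and 8.42 in Col-0 at 4 °C and 6.08 and 5.50 at 22 °C. The cold arrays overlapped between genotypes and the warm Col-0 arrays were lower than the warm 35S-GSH1 arrays, as in AT5G04500. Its interaction was -0.70 (95% interval -1.32 to -0.08, limma unadjusted p = 0.0289, adjusted p 0.9996). AT3G06750, AT2G41770, AT5G57250 and AT5G11070 had interactions of -0.49, 1.02, 1.67 and 0.79, each with an interval that included 0. With log2(intensity + 16) they were -0.23, 0.027, 0.80 and 0.36.

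Among the 6 with the largest fall, AT3G25290 had the only interval that excluded 0. Its values were 1.096 and 1.48 in 35S-GSH1 at 4 °C and 5.71 and 4.91 at 22 °C, against 3.10 and 3.18 in Col-0 at 4 °C and 5.64 and 5.08 at 22 °C. The warm arrays overlapped between genotypes, and the cold 35S-GSH1 arrays were the lowest. The temperature difference was -4.03 in 35S-GSH1 and -2.22 in Col-0, an interaction of -1.80 (95% interval -3.12 to -0.48, limma unadjusted p = 0.011, adjusted p 0.9996). AT4G33560 had the largest fall of the 6, with 1.90 and 0.72 in 35S-GSH1 at 4 °C and 4.25 and 5.59 at 22 °C, against 0.50 and 0.60 in Col-0 at 4 °C and 5.60 and 5.56 at 22 °C. The cold Col-0 arrays were near the bottom of the scale. Its interaction was 1.42, with an interval of -0.56 to 3.39. AT3G48140, AT5G19120, ZCF37 and AT3G15770 had 0.47, 0.19, 0.36 and 0.83, each with an interval that included 0. With log2(intensity + 16) the interaction was -0.42 for AT3G25290, 0.54 for AT4G33560, 0.22 for AT3G48140 and 0.12 for AT3G15770.

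Gene lists were then read for members whose cold response differed by genotype. The 21 lists held 234 distinct tested genes. None passed, and 11 of the 234 (4.7%) had an unadjusted p under 0.05, beside 3.32% of all probe sets. Of these 11, 8 lay above 0 and 3 below 0. The 95% interval lay inside 2-fold for 107 of the 234, beside 47.8% of all probe sets. Of the list medians, 12 were above 0 and 9 below. Leaving out 1 array turned the sign of the median in 11 of the 21 lists.

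**Figure D4:**
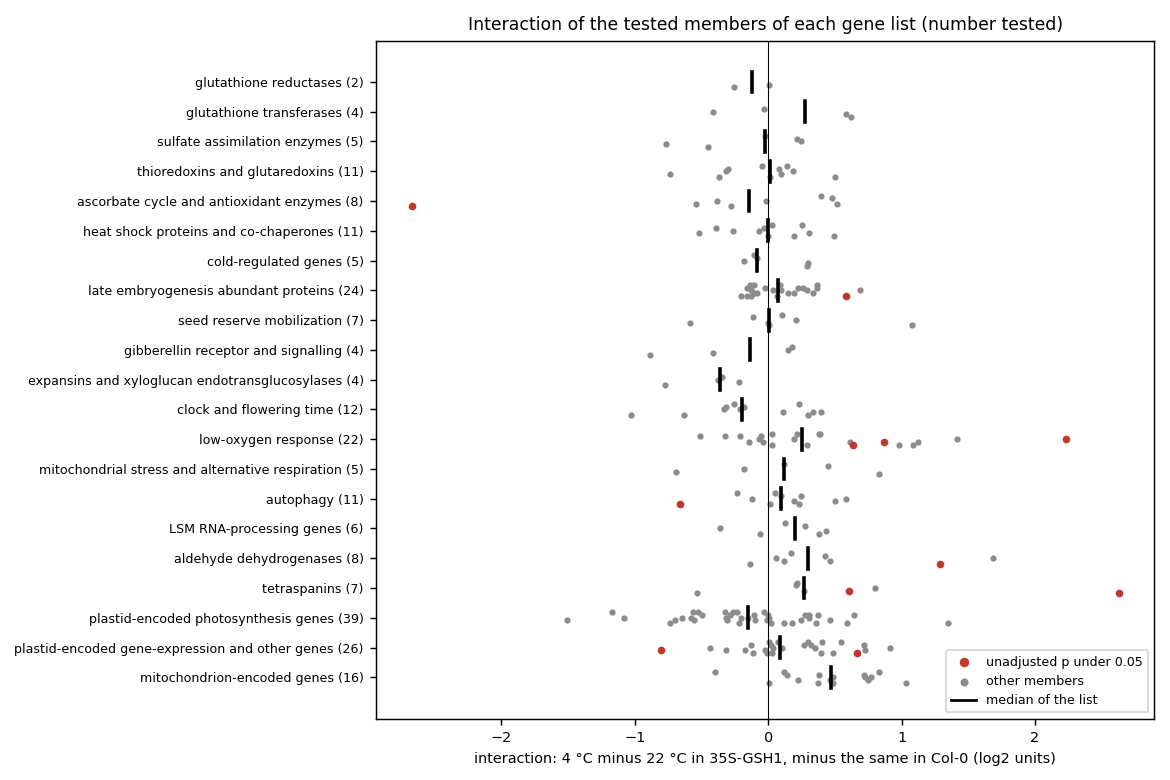
The interaction (log2 units, 35S-GSH1 minus Col-0) of each tested member of the 21 gene lists, with the list median as a bar and members at an unadjusted p under 0.05 in red. The list medians run from -0.36 to 0.47, and the mitochondrion-encoded genes have the highest median, 0.47.

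Genes that use or make glutathione were examined first, since GSH1 makes the precursor of glutathione. Both glutathione reductases, which regenerate glutathione from its oxidised form, were tested. GR1 (AT3G24170) had 7.23 and 7.16 in 35S-GSH1 at 4 °C and 8.19 and 8.01 at 22 °C, against 7.10 and 7.35 in Col-0 at 4 °C and 8.04 and 7.71 at 22 °C. It was lower in the cold by 0.90 in 35S-GSH1 seeds and 0.65 in Col-0 seeds, and the groups lined up by temperature in both. The interaction was -0.25 (95% interval -0.82 to 0.31). GR (AT3G54660) had 0.01 (-0.49 to 0.51), with responses of 0.32 in both genotypes. For both enzymes a 2-fold difference between the responses lay outside the interval.

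Of 14 glutathione transferases on the table, which conjugate glutathione to other molecules, 4 passed the filter. GSTU28 had an interaction of 0.62, GSTU26 one of 0.59 and GSTU22 one of -0.42, and the list had 2 members above 0 and 2 below. The 5 sulfate assimilation genes, which supply the sulfur of cysteine and glutathione, ranged from -0.76 to 0.24 with a median of -0.02, which was -0.49 when replicate 2 of the cold Col-0 seeds was left out and 0.26 for replicate 1. Sulfite reductase SIR had -0.45 (95% interval -1.07 to 0.17) and the ATP sulfurylase APS4 had -0.76 (-1.84 to 0.32). With the larger constant GSTU28 had 0.39, GSTU26 0.34 and APS4 -0.41. None of these genes had an unadjusted p under 0.05.

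In the ascorbate cycle and antioxidant list, 8 of 12 genes passed the filter, with a median of -0.15, which ran from -0.26 to -0.075 with 1 array left out. ATMDAR2 (AT5G03630), a monodehydroascorbate reductase that recycles ascorbate, stood out at the low end. It had 1.77 and 1.67 in 35S-GSH1 at 4 °C and 4.32 and 3.37 at 22 °C, against 3.95 and 3.76 in Col-0 at 4 °C and 3.65 and 2.95 at 22 °C. The cold 35S-GSH1 arrays were lower than the other 6, at deposited intensities of 2.8 and 2.1. The interaction was -2.67 (95% interval -4.42 to -0.93, limma unadjusted p = 0.00543, adjusted p 0.9996), and it was -0.94 with log2(intensity + 16). The other members lay between -0.54 and 0.52. They included GLDH, the last enzyme of ascorbate synthesis, at -0.54, the mitochondrial peroxiredoxin PRXIIF at -0.38 and the stromal ascorbate peroxidase SAPX at 0.48. Among the thioredoxins and glutaredoxins, small disulfide reductases, 11 of 12 were tested, with a median of 0.01, which was below 0 in 7 of the 8 recalculations that left out 1 array, and none at an unadjusted p under 0.05. TRXF2 had -0.74, or -0.37 with the larger constant, and GRXC2 had -0.37.

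Heat shock proteins, chaperones that bind unfolded proteins, had a median interaction of -0.00033 over 11 tested genes, and -0.17 to 0.12 with 1 array left out. AT5G51440, placed in the list by its locus, had 7.07 and 6.87 in 35S-GSH1 at 4 °C and 9.36 and 9.29 at 22 °C, against 6.87 and 6.67 in Col-0 at 4 °C and 9.78 and 9.46 at 22 °C. It was lower at 4 °C in every array of both genotypes, by 2.36 log2 units in 35S-GSH1 seeds and 2.85 in Col-0 seeds. Its interaction was 0.50 (95% interval -0.04 to 1.03), and the upper end of the interval lay just past 2-fold. AT5G37670 had 0.31, ATHSP22.0, a small heat shock protein, had -0.27 and the chaperone Hsp70-2 had -0.39.

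The 5 tested cold-regulated genes had interactions of -0.18 to 0.30, with 4 of the 5 intervals inside 2-fold, beside 47.8% of all probe sets. Their mean log2 values of 8.01 to 12.52 all lay in the brightest class, where 87.7% of the intervals were inside 2-fold. The dehydrin LTI30, a protective protein that accumulates in the cold, had 12.54 and 12.88 in 35S-GSH1 at 4 °C and 12.29 and 12.36 at 22 °C, against 12.32 and 12.82 in Col-0 at 4 °C and 12.29 and 12.67 at 22 °C. The Col-0 arrays overlapped between temperatures and the 35S-GSH1 arrays did not, yet the interaction was 0.29 with an interval of -0.26 to 0.84. COR27, a cold-regulated clock component, had -0.18, the temperature-induced lipocalin TIL -0.08, and AT4G33980, listed by locus, 0.30.

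Late embryogenesis abundant proteins protect the dry seed, and 24 of 25 were tested. Their median was 0.08, which was -0.068 when replicate 1 of the warm 35S-GSH1 seeds was left out and 0.21 for replicate 2. The intervals of 20 of the 24 lay inside 2-fold, beside 47.8% of all probe sets and 87.7% of the brightest class. Their mean log2 values ran from 4.21 to 13.28. AT2G23110 had an unadjusted p of 0.0212 by limma and an interaction of 0.58 (95% interval 0.10 to 1.07). Its log2 values were 11.92 and 12.01 in 35S-GSH1 at 4 °C and 11.76 and 11.46 at 22 °C, against 11.76 and 11.35 in Col-0 at 4 °C and 11.76 and 11.80 at 22 °C. The cold 35S-GSH1 arrays were the highest, by small margins. AT2G23120 had 0.34 and LEA18 0.26.

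Genes of seed reserve use and germination control gave no member at an unadjusted p under 0.05. In the reserve list 5 of 7 tested genes lay above 0. The dim ALPHA-VPE had 1.08 (95% interval -0.55 to 2.71), OLEO3 had 0.21 and the cysteine protease CP1 had -0.59 (-0.39 with the larger constant). Of the 4 tested gibberellin genes, 2 lay above 0, SLY1 at 0.15 and SPT at 0.18, and 2 below. Those below were the receptor genes GID1C and GID1A, at -0.89 (95% interval -1.79 to 0.02) and -0.41 (-0.90 to 0.07). Gibberellin promotes germination through these receptors. GID1A had 8.50 and 8.71 in 35S-GSH1 at 4 °C and 8.68 and 8.73 at 22 °C, against 8.68 and 8.61 in Col-0 at 4 °C and 8.33 and 8.33 at 22 °C. The warm Col-0 arrays were the low ones, and the 35S-GSH1 arrays overlapped. Of 20 expansin and xyloglucan endotransglucosylase genes on the table, which loosen cell walls, 4 passed the filter. All 4 lay below 0, at -0.77 to -0.22, but each 95% interval included 0, and that of EXPA20 ran from -2.54 to 1.84. With a 60th percentile filter 1 gene was left. In several recalculations that left out 1 array, 1 member lay above 0, as without replicate 1 of the cold Col-0 seeds. Of the 12 clock and flowering genes, 5 lay above 0, and the MADS-box genes AGL16 and AGL18 had -1.02 and 0.39. With the larger constant AGL16 had -0.47.

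The low-oxygen list, whose members were placed by locus and chosen with the cold response of some of them known, held 22 tested genes. The mean temperature difference of both genotypes passed for 15 of them, 13 lower and 2 higher at 4 °C. Over all probe sets tested the same test called 16.4%, 7.74% lower and 8.65% higher, and nothing is read from the list's larger share, since that response was known when the list was drawn up. Its median temperature difference was -0.67 in 35S-GSH1 and -0.98 in Col-0. The interaction was above 0 for 15 of the 22, with a median of 0.25, and 3 had an unadjusted p under 0.05, all above 0 (1.47% of all probe sets). The largest was that of AT5G10040, with 2.48 and 3.17 in 35S-GSH1 at 4 °C and 4.01 and 4.88 at 22 °C, against 0.42 and 2.19 in Col-0 at 4 °C and 4.64 and 5.68 at 22 °C. Warm arrays were above cold ones in both genotypes, and the gap was 1.63 in 35S-GSH1 seeds and 3.86 in Col-0 seeds. The interaction was 2.23 (95% interval 0.29 to 4.17). The cold Col-0 arrays were at deposited intensities of 0.4 and 3.0, 2 group means lay under the filter level, and the interaction was 0.78 with log2(intensity + 16).

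AT1G33055 was bright and showed a narrower interval. It had 9.26 and 9.20 in 35S-GSH1 at 4 °C and 9.90 and 10.06 at 22 °C, against 8.88 and 8.91 in Col-0 at 4 °C and 10.06 and 10.49 at 22 °C, an interaction of 0.63 (0.13 to 1.14). The cold 35S-GSH1 arrays lay above the cold Col-0 arrays. AT5G44730 had 5.02 and 5.30 in 35S-GSH1 at 4 °C and 5.30 and 5.41 at 22 °C, against 4.61 and 4.52 in Col-0 at 4 °C and 5.42 and 5.83 at 22 °C, an interaction of 0.87 (0.13 to 1.61). The cold Col-0 arrays were the low ones here too. AT4G27450 went the other way, with -0.51 (-1.03 to 0.02), from differences of -1.40 in 35S-GSH1 and -0.89 in Col-0. Leaving out 1 array moved the list median: it was 0.081 when replicate 1 of the cold Col-0 seeds was left out, 0.13 for replicate 2 of the warm ones, and 0.47 for replicate 2 of the cold ones. With replicate 1 of warm 35S-GSH1 left out, 0 members had an unadjusted p under 0.05.

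Among the smaller families, 6 of 7 tested tetraspanins, membrane proteins that organise other proteins, lay above 0, with a median of 0.27. TET15 had 4.46 and 3.72 in 35S-GSH1 at 4 °C and 1.26 and 2.74 at 22 °C, against 2.75 and 3.79 in Col-0 at 4 °C and 3.73 and 3.88 at 22 °C. The warm 35S-GSH1 arrays were the lowest of the 8, one of them by a narrow margin, and the Col-0 arrays overlapped between temperatures. Its interaction was 2.63 (95% interval 0.74 to 4.51, limma unadjusted p = 0.00974), and 0.95 with log2(intensity + 16). TET8 was brighter, with 7.75 and 7.55 in 35S-GSH1 at 4 °C and 6.63 and 6.58 at 22 °C, against 7.66 and 7.27 in Col-0 at 4 °C and 6.90 and 7.14 at 22 °C. It was higher at 4 °C in both genotypes, by 1.04 in 35S-GSH1 and 0.44 in Col-0, an interaction of 0.60 (0.01 to 1.19). TET4, the brightest member, had 0.21.

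Of the 8 aldehyde dehydrogenases, which oxidise reactive aldehydes, 7 lay above 0, with a median of 0.30. ALDH22A1 had 1.29 (95% interval 0.11 to 2.47, and 0.77 with the larger constant) and ALDH7B4 0.46 (-0.04 to 0.97). The family's median was 0.013 when replicate 1 of the cold Col-0 seeds was left out. Autophagy genes, which package cell contents for breakdown, had a median of 0.10 over 11 tested genes, which was 0.040 when replicate 2 of the warm 35S-GSH1 seeds was left out and 0.23 for replicate 1 of the cold Col-0 seeds. ATG8D and ATG8B, which mark the autophagosome membrane, had 0.50 (-0.01 to 1.01) and 0.58 (-0.09 to 1.26). AT5G66930, which encodes ATG101, a part of the kinase complex that starts autophagy, had -0.66 (-1.25 to -0.07). The 6 LSM genes, whose products bind RNA in splicing and decay, had a median of 0.20, with LSM6A at 0.38 and LSM1A at 0.44. That median was 0.048 when replicate 2 of the warm Col-0 seeds was left out and 0.39 for replicate 1.

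Genes of the organelle genomes followed. Of the 16 tested mitochondrion-encoded genes 15 had an interaction above 0, with a median of 0.47 and no unadjusted p under 0.05. They encode respiratory chain subunits and factors of cytochrome c maturation. For nad7, a complex I subunit, the values were 7.09 and 6.65 in 35S-GSH1 at 4 °C and 6.94 and 6.62 at 22 °C, against 6.93 and 5.51 in Col-0 at 4 °C and 7.51 and 6.83 at 22 °C. For cox1, a cytochrome oxidase subunit, they were 11.71 and 11.48 in 35S-GSH1 at 4 °C and 11.68 and 11.16 at 22 °C, against 11.99 and 10.91 in Col-0 at 4 °C and 12.27 and 11.79 at 22 °C. In both genes Col-0 4 °C replicate 2 was the lowest array. The interaction was 1.03 for nad7, 0.75 for cox1 and 0.73 for cox2, another cytochrome oxidase subunit.

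That array was low across the list. The mean of the 16 genes, each relative to its own mean over the 8 arrays, was 0.17 and -0.50 in 35S-GSH1 at 4 °C and 0.32 and -0.09 in 35S-GSH1 at 22 °C. It was 0.19 and -0.86 in Col-0 at 4 °C and 0.60 and 0.18 in Col-0 at 22 °C. The second replicate was the lower one in all 4 groups. When it was left out the list median was -0.074, with 5 of 15 tested genes above 0, and when the other cold Col-0 array was left out it was 0.93. With the arrays numbered 1 alone the mean interaction of the list was 0.26, and with those numbered 2 alone it was 0.63. The direction was thus the same in both sets of 4 arrays, and it turned when that single array was left out.

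**Figure D5:**
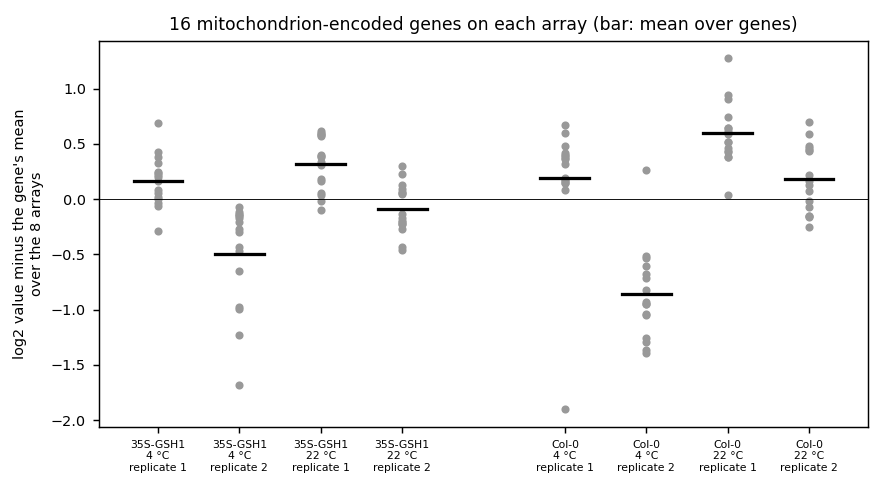
The 16 tested mitochondrion-encoded genes on each array, as the log2 value minus the gene's mean over the 8 arrays (points), with the mean over genes as a bar. Replicate 2 of Col-0 at 4 °C has the lowest mean, -0.86, and replicate 1 of the same group has 0.19.

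Plastid-encoded photosynthesis genes had a median of -0.15 over 39 tested genes, 14 of them above 0. The photosystem II gene psbB had -1.51 (95% interval -3.35 to 0.33) and ndhJ, of the NADH dehydrogenase-like complex, had 1.35 (-0.02 to 2.72). With the larger constant psbB had -0.74 and ndhJ 0.56. The median was 0.11 when replicate 1 of the cold Col-0 seeds was left out and 0.12 for replicate 2 of the warm ones. The 26 plastid-encoded genes of gene expression and other functions had a median of 0.09, which was -0.11 when replicate 2 of the cold Col-0 seeds was left out and 0.43 for replicate 1. The ribosomal protein genes rpl32 and rpl33 were the members with an unadjusted p under 0.05, at 0.66 and -0.80. Neither plastid list kept its direction in every such recalculation.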

How the data were processed

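The samples were 8 Arabidopsis thaliana seed RNAs on single-colour Affymetrix arrays. The deposited values are linear probe-set intensities, made by the authors with GCOS, per the submitters' processing notes; the algorithm, scaling target and version were not found in the sources used here. Trimmed means differed by up to 9.71% between arrays and their median, so arrays were quantile normalized, which hides any shift shared by most transcripts. Values became log2(intensity + 1), and probe sets with a mean below the 40th percentile (2.86) were left out. The added 1 shrinks differences of dim probe sets, yet their intervals were the widest. The median half-width was 1.58 log2 units in the dimmest class and 0.55 in the brightest. Large dim values are thus not cautious estimates. Limma (version 3.58.1, R 4.3.3) fitted the 4 group means to all 8 arrays with 4 residual degrees of freedom and intensity-trended empirical Bayes moderation. Tests were two-sided, with Benjamini-Hochberg adjustment over 13648 probe sets, a threshold of 0.05 and 95% intervals. Precision is limited by the number of arrays. The procedure was run on simulated data with independent noise on every array, to check its estimates and intervals. The simulated arrays had no shared replicate structure. Nothing is read from that run about true interactions missed here.

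Gene names came from a table pairing probe sets with genes. In it 13513 of 22746 probe sets had 1 gene, 503 several and 8730 none, and 13436 matched RefSeq (TAIR10.1); no coordinates are given because no source names a build. A gene is represented by its brightest probe set. Named genes were the 10 smallest p-values in each direction with 1 gene, 3 probe sets in each direction without one, up to 4 list members with the smallest p, and the 6 largest rises and 6 largest falls at 4 °C. Members and lists were chosen with earlier results of these data known, and the lists were revised after the name tables and some interaction values had been seen. Same-numbered replicates had deviations correlated at 0.051 to 0.14 over 6 pairs of groups, all positive, so some shared structure is possible. Replicate 1 also had the higher median deposited intensity in all 4 groups. The medians were 16.1 and 13.3 in cold 35S-GSH1 seeds, 14 and 12.3 in warm ones, 16.2 and 13.2 in cold Col-0 seeds and 14.2 and 13.5 in warm ones. No label says that the numbers pair samples, so the main fit had no replicate term. A fit with the replicate number as a block is given below.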

Additional observations from a re-analysis of the deposited data

How the results depend on the processing

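The count past the threshold was 0 in every one of the 18 alternatives, including adjusted p thresholds of 0.1 and 0.2. The smallest adjusted p came closest to a call at 0.0777, without 35S-GSH1 22 °C replicate 2. The count at an unadjusted p under 0.05 was 935 with no filter, 290 with a 60th percentile filter (which test more and fewer probe sets), and 394 to 714 with 1 array left out, the highest without Col-0 22 °C replicate 1. With the replicate number as a block it was 745; the block changed no call. Of the same-numbered pairs of groups, 3 of 6 had correlations over 0.1, and no label says that the numbers mark shared handling. Members at an unadjusted p under 0.05 then numbered 6 of the 16 mitochondrion-encoded genes, against 0, and 7 of the 22 low-oxygen genes, against 3. Over all probe sets the same fit gave 745 of 13648, against 453. The mitochondrion-encoded genes had a lower mean in the second replicate of all 4 groups, so a replicate term acts on them together. Nothing is read from these member counts. Intervals inside 2-fold numbered 11580 with log2(intensity + 16), whose larger added constant compresses dim values, and 4820 to 5532 with 1 array left out. The signed median over cold responders ran from -0.13 to 0.044 with 1 array left out. Each such run chose its responders anew in an unbalanced design. By construction this favours a shift whose direction depends on the genotype that lost the array. In a group left with 1 array, that array was assumed to vary like the others.

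Among named genes, TIL was 0.033 on the deposited scale and GR -0.048 with each array centred on its median; the cause was not tested. With 1 array left out, the sign turned for 12 of them, including values as far from 0 as those of AT5G11070 (0.79) and cox2 (0.73). The ranges were -1.46 to 0.49 for AT3G06750, -0.28 to 0.44 for AT3G19680, -0.098 to 1.02 for AT3G48140, -0.17 to 0.78 for AT4G33980, -0.018 to 1.59 for AT5G11070, -0.45 to 0.85 for AT5G19120, -0.39 to 0.031 for COR27, -0.058 to 0.073 for GR, -0.042 to 0.45 for OLEO3, -0.22 to 0.073 for TIL, -0.43 to 1.15 for ZCF37 and -0.023 to 1.47 for cox2. List medians under the alternatives were computed after the data were seen.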

Other observations

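Among the 453 probe sets with an unadjusted p under 0.05, the group whose mean stood farthest from the mean of the other groups was Col-0 at 22 °C for 177, 35S-GSH1 at 22 °C for 112, Col-0 at 4 °C for 84 and 35S-GSH1 at 4 °C for 80. Over all 13648 probe sets the counts were 4262 for Col-0 at 22 °C, 3208 for 35S-GSH1 at 22 °C, 2896 for Col-0 at 4 °C and 3282 for 35S-GSH1 at 4 °C. The genotypes differed more at 22 °C than at 4 °C in 289 of the 453 (63.8%), beside 54.7% of all probe sets. The temperature differences of the genotypes had opposite signs in 312 (68.9%), beside 29.9% of all; a small interaction p favours opposite signs by construction. These counts are descriptions of a set chosen by its p.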
